A study of Mus musculus with 13 samples.

Results

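The signals that draw progenitors into the thymus, move thymocytes through it and keep them alive were followed through 7 niche factors: the chemokines Ccl25, Cxcl12, Ccl19 and Ccl21a and the cytokines Il7, Kitl and Flt3l. They were matched by gene symbol, and all 7 were found among the 53379 genes of the count table. The libraries hold bulk RNA-seq of CD45− thymic stroma cells from 2-month-old wild type C57BL/6 mice. The steady state group had 4 libraries, labelled untreated and named PBS in the count table. The other groups had 3 libraries each, taken 1, 4 or 7 days after sublethal total body irradiation (SL-TBI). The labels gave no sex for these animals and did not say how many mice went into a library, so the p-values measure the spread between libraries, which may in part be technical.

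CCL25 and CXCL12 are chemokines of the thymic stroma that act through CCR9 and CXCR4 on progenitors and immature thymocytes. CCL19 and CCL21 act through CCR7, and the CCL21 made by medullary thymic epithelial cells (mTECs) brings positively selected thymocytes into the medulla. IL-7, from thymic epithelial cells (TECs), is the survival and growth factor of early thymocytes, stem cell factor (the product of Kitl) acts through KIT on the earliest progenitors, and FLT3 ligand acts through FLT3 on progenitors and dendritic cell precursors.

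Ccl21a needed a look at its sequence before its counts could be read, because mice carry nearly identical copies of it. In GENCODE transcripts of GRCm38, Ccl21a lies on the minus strand at chr4:42772860-42773993, and the coding sequences of Ccl21b, Gm21541, Gm13304 and Gm10591 each differed from that of Ccl21a at 2 of 399 bases (99.5% identity). The last 3 were singled out after their values were seen. The differences were T84A and C194T, with the base of Ccl21a first and positions counted from 1 at the A of the start codon. The windows around them are shown from the Ccl21a transcript, 5′ to 3′, with the differing base in capitals, because no other coding base differs between Ccl21a and these copies. Bases outside the coding sequence were not compared.
Ccl21a coding bases 64 to 104: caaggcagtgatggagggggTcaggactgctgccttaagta
Ccl21a coding bases 174 to 214: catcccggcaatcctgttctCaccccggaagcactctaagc
The table assigned 42681 counts to Ccl21a over the 13 libraries and 1 count to the 4 copies together. The authors counted reads with featureCounts at its defaults, which leave out reads aligned to several places, so Ccl21a values are those of uniquely placed reads and its level against other genes is uncertain. The defaults also leave out reads that overlap several genes and use no strand.

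For the other members no sequences were compared, and only counts of pseudogenes and exonic bases shared with other genes were examined. Ccl19 (chr4:42754525-42756577, minus strand) has pseudogenes, of which Ccl19-ps1 held 6 to 145 counts and Ccl19-ps3 held 1 count in all 13 libraries together, against 36 to 415 for Ccl19. In the steady-state library named PBS day 1 replicate 2, Ccl19-ps1 held 145 counts and Ccl19 held 373. Ccl19 reads aligned to several places were left out too, so its level against other genes is also uncertain. Of the exonic bases of Flt3l (chr7:45129788-45136432, minus strand), 22.1% are shared with Gm45713, while the share was 2.74% for Ccl25 (chr8:4325210-4360020, plus strand, with Elavl1) and 1.85% for Il7 (chr3:7569994-7613760, minus strand, with Gm16685). Cxcl12 (chr6:117168535-117181367, plus strand) and Kitl (chr10:100015630-100100416, plus strand) shared no exonic base with another gene.

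Ccl25 has 2 annotated starts in the RefSeq promoter table of GRCm38.p6. The 250 bases before its inner start, at chr8:4349338-4349587 on the plus strand, lie inside the annotated Ccl25 locus, and they are shown because Ccl25 had the widest span of levels among the 7 genes. The capitals mark the letters TATAAA, which were searched for without regard to their distance from the start.
Ccl25 inner start: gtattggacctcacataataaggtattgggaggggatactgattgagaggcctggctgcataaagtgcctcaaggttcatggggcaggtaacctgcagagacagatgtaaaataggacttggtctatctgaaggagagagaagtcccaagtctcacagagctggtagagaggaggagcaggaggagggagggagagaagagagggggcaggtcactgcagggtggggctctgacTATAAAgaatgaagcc
TATAAA was found on either strand in 12.4% of all 32851 windows of this length. It was also found before Kitl. The core GACGC that FOXN1, the master transcription factor of TECs, binds was found on either strand in 22.6% of windows, among them those before the outer start of Ccl25, before Cxcl12 and before Kitl. The window before the inner start of Ccl25 and those of Ccl19, Ccl21a and Flt3l do not hold these letters. Of the 7 members, 6 had an entry in the table. A match of letters is a description and does not show that a factor binds.

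Depth per library ran from 15721866 to 52056896 counts, and all 7 members were among the 19984 genes that passed the filter on low counts. The stromal sort held markers of other cells. The summed level of 9 thymocyte genes was 202 to 688 CPM (counts scaled to a common library size) at steady state, 104 to 134 on day 1, 19.7 to 29.4 on day 4 and 179 to 4200 on day 7. The summed level of 3 erythroid genes was 1557 to 3571 CPM at steady state and 3.48 to 6.26 at day 4. Among steady-state libraries, the summed level of 6 fibroblast (FB) genes spanned 18010 to 145700 CPM. Gene by gene, the highest of these libraries held 23.7 times the lowest for Col1a1, 12.4 times for Col1a2 and 10.1 times for Col3a1. The span was 4.29 times for Lum, 2.76 times for Dcn and 1.34 times for Pdgfra. In bulk libraries, fewer cells of a type and less RNA per cell cannot be told apart.

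Levels between genes were compared as CPM per kilobase of exon. Over the 13 libraries the mean was 97.7 for Cxcl12, 91.5 for Ccl21a, 24.2 for Ccl25, 9.80 for Il7, 8.94 for Kitl, 5.18 for Ccl19 and 1.95 for Flt3l. Cxcl12 and Ccl21a could not be placed in order, since Cxcl12 was the higher in 7 of 13 libraries. Ccl21a was above Ccl25 in 13 of 13. Il7 and Kitl were likewise not separated, with Il7 the higher in 6 of 13. Ccl25 was above Il7, and Kitl above Ccl19, in 11 of 13 libraries, and in both cases the exceptions were replicates 1 and 2 of day 1. Ccl19 was above Flt3l in 12 of 13, the exception being replicate 2 of day 7.

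**Figure D1:**
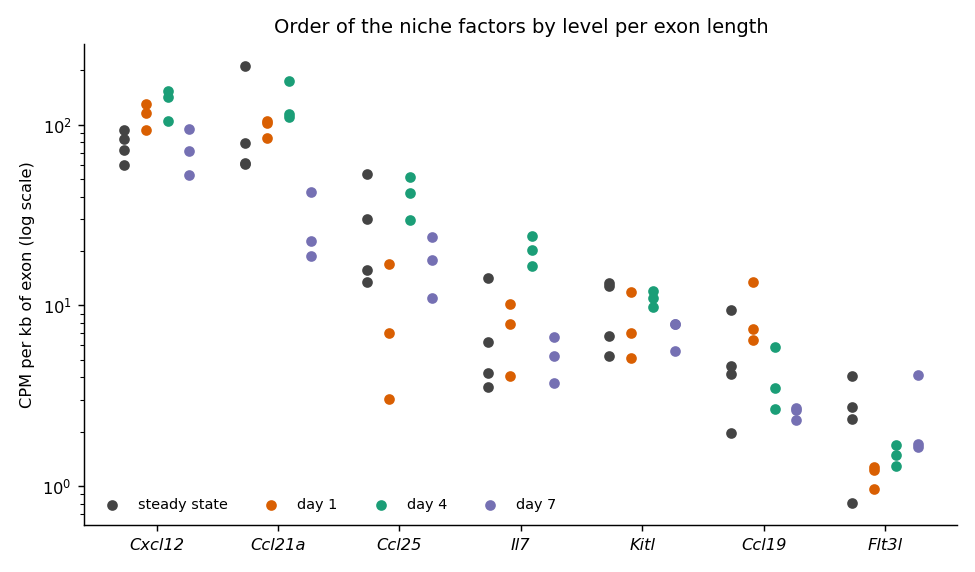
Level of each niche factor as CPM per kilobase of exon (log axis), 1 point per library, coloured by condition, with genes ordered by their mean over 13 libraries. Ccl21a lies above Ccl25 in all 13 libraries, and Flt3l has the lowest mean.

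Against steady state, none of the 7 niche factors passed the threshold (edgeR quasi-likelihood test, Benjamini-Hochberg adjusted p of 0.05 or less) at any of the 3 days. The share of all tested genes that passed was 2.35% at day 1, 0.290% at day 4 and 0.00500% at day 7. At an unadjusted p under 0.05 there were 3 members at day 1 (Ccl25, Cxcl12 and Flt3l), 2 at day 4 (Cxcl12 and Il7) and 1 at day 7 (Ccl21a). The share of all genes at that unadjusted p was not counted. DESeq2 called 0 members at day 1, both Cxcl12 and Il7 at day 4, and Ccl21a at day 7. It called more of all genes than edgeR did, 7.00% at day 1, 3.23% at day 4 and 5.41% at day 7. Among the days after SL-TBI, 0 members passed between days 4 and 1, where 1.43% of genes did. Of the 7, 3 had an unadjusted p under 0.05 (Ccl25, Ccl19 and Il7). DESeq2 called 1 (Ccl25), beside 4.80% of all genes. Between days 7 and 1, 2 members passed, both lower at day 7 (Ccl19 and Ccl21a), where 8.13% of all genes passed. DESeq2 called the same 2, beside 14.7% of all genes, and 4 members had an unadjusted p under 0.05 (Cxcl12, Ccl19, Ccl21a and Flt3l). Between days 7 and 4, 2 members passed, both lower at day 7 (Ccl21a and Il7), where 3.90% of all genes passed. DESeq2 called 3, these and Cxcl12, which are also the 3 with an unadjusted p under 0.05. Against steady state, the median log2 fold change of the members was −0.08 at day 1, 0.37 at day 4 and −0.44 at day 7, beside −0.10, −0.13 and 0.0024 for all genes tested. It was 0.44 from day 1 to day 4, −0.50 from day 1 to day 7 and −0.88 from day 4 to day 7, beside −0.10, 0.05 and 0.11.

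**Figure D2:**
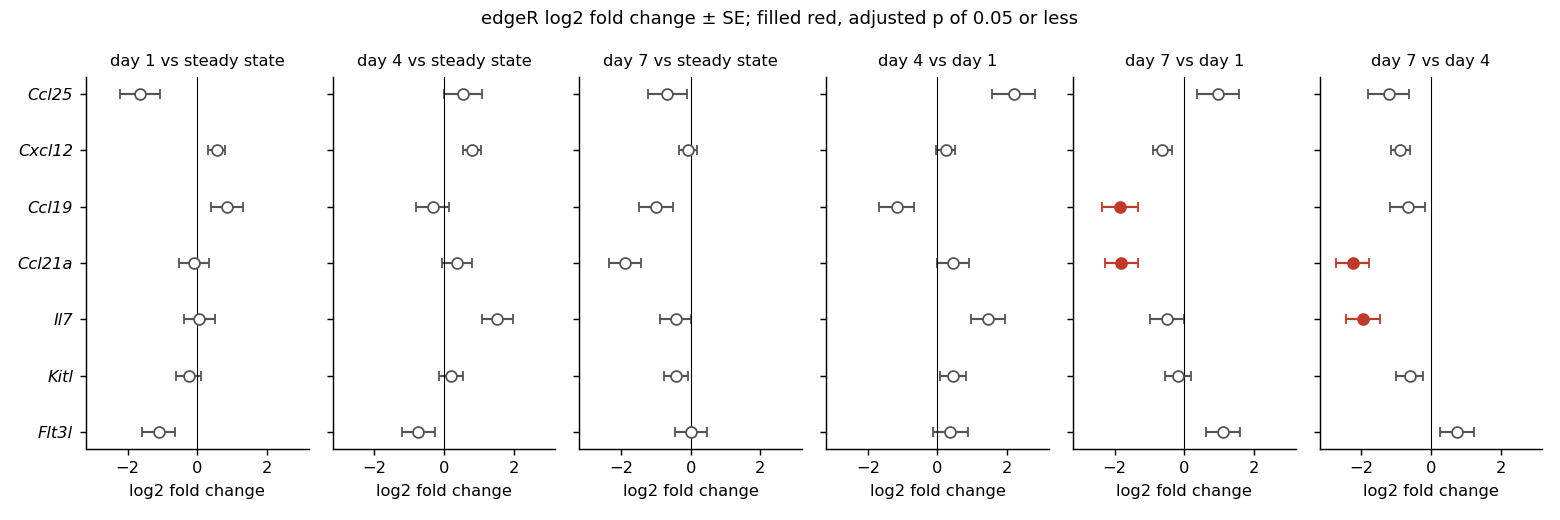
Log2 fold change (edgeR) of each niche factor in the 6 comparisons, with bars of 1 SE. Filled red points passed an adjusted p of 0.05, and they are Ccl19 and Ccl21a for day 7 against day 1 and Ccl21a and Il7 for day 7 against day 4.

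Against steady state, 0 members had ranges that did not overlap on day 1, where 15.8% of all genes did, 2 were higher without overlap on day 4 (14.7% of genes, either direction) and 1 was lower on day 7 (7.49%). At day 4 against day 1, 4 members were higher and 1 lower without overlap (26.3% of genes). At day 7 against day 1 there was 1 higher and 2 lower (27.5%), and at day 7 against day 4 there were 5 lower (26.2%).

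Ccl25 had its lowest mean at day 1 and its highest at day 4. Its levels were 395, 100, 223 and 117 CPM in the 4 steady-state libraries, 52.1, 22.6 and 126 at day 1, 311, 380 and 222 at day 4, and 178, 132 and 81.7 at day 7. All 3 libraries of day 4 lay above all 3 of day 1, while the steady-state range overlapped that of every day. Replicate 3 of day 1 stood above the other 2 libraries of its day, and its cTEC score (the mean log2(CPM + 0.5) of Psmb11, Prss16, Ly75 and Tbata, genes of cortical TECs) was 7.21 against 3.60 and 3.43. The log2 fold change was −1.64 (SE 0.58, adjusted p = 0.171) from steady state to day 1 and 2.19 (SE 0.62, adjusted p = 0.120) from day 1 to day 4, neither past the threshold. Without replicate 3 of day 1, the change from day 1 to day 4 was 3.03 and passed it (adjusted p = 0.0400), and that from steady state to day 1 was −2.48 (adjusted p = 0.0656). Without the steady-state library named PBS day 1 replicate 2 the latter was −1.09 (adjusted p = 0.321).

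The TEC score (Epcam, Krt8, Krt18, Krt5 and Cdh1) was not low at day 1 as Ccl25 was. It was 7.62 ± 0.87 (SD, n = 4) at steady state and 8.12 ± 0.48 (n = 3) at day 1, while the cTEC score was 7.19 ± 0.96 and 4.75 ± 2.13. The genes of the TEC score did not all move together. From steady state to day 4, log2 fold changes were 1.89 for Krt5, 1.58 for Krt18, 0.84 for Krt8 and 0.72 for Cdh1. That of Epcam was −0.75, and none of these changes passed the threshold. The log2 ratio of Ccl25 to the TEC score was −0.13 ± 0.14 at steady state, −2.38 ± 1.01 on day 1, −0.38 ± 0.35 on day 4 and 0.04 ± 0.22 on day 7. Every library of day 1 lay below every other library on this ratio. The log2 ratio of Ccl25 to the cTEC score did not have a lower mean at day 1. That ratio was 0.31 ± 0.20 at steady state, 0.99 ± 1.18 on day 1, 0.09 ± 0.41 on day 4 and 0.17 ± 0.19 on day 7. With the TEC score as a covariate in the fit, Ccl25 passed the threshold from steady state to day 1 (log2 fold change −2.12, SE 0.40, adjusted p = 0.0117) and from day 1 to day 7 (2.38, SE 0.49, adjusted p = 0.0299).

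Cxcl12 was the most even of the chemokines. Its levels were 762, 678, 590 and 491 CPM at steady state, 760, 1067 and 954 on day 1, 1259, 1171 and 862 on day 4, and 775, 430 and 586 on day 7. The day 4 libraries lay above all steady-state and all day 7 libraries. The ratio of means was 1.74 for day 4 over steady state (log2 fold change 0.80, SE 0.25, adjusted p = 0.237) and 0.544 for day 7 over day 4 (−0.88, SE 0.27, adjusted p = 0.0966), and neither passed the threshold by edgeR. DESeq2 called both (adjusted p = 0.0328 and 0.0134). Without replicate 1 of day 7, the edgeR change from day 4 to day 7 was −1.11 and passed the threshold (adjusted p = 0.0423). In that fit 7.26% of all genes passed, against 3.90% with all libraries.

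Ccl21a fell at day 7. Its levels were 184, 53.1, 69.0 and 52.7 CPM at steady state, 91.7, 73.5 and 89.4 on day 1, 99.5, 152 and 96.2 on day 4, and 36.8, 19.7 and 16.4 on day 7. All 3 libraries of day 7 lay below the other 10. The log2 fold change was −2.25 (SE 0.48, adjusted p = 0.0245) from day 4 to day 7 and −1.80 (SE 0.47, adjusted p = 0.0350) from day 1 to day 7. From steady state to day 7 it was −1.88 (SE 0.45, adjusted p = 0.117), which did not pass.

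The Ccl21a calls were lost without some single libraries. From day 4 to day 7 the call was lost without replicate 2 or 3 of day 4 (adjusted p = 0.119 and 0.0836) or without replicate 2 or 3 of day 7 (0.0998 and 0.0863). From day 1 to day 7 it was lost without any 1 of the libraries of day 1 (0.0903, 0.0639 and 0.0842 without replicates 1, 2 and 3) and without replicate 2 or 3 of day 7 (0.120 and 0.117). From steady state to day 7 the call was gained without replicate 1 of day 7 (−2.31, adjusted p = 0.0316). In that fit 2.99% of all genes passed, against 0.00500% with all libraries. Without the steady-state library named PBS day 1 replicate 2, which held 184 CPM, the change was −1.26 (adjusted p = 0.263). The direction was the same in every one of these fits. TEC markers moved with Ccl21a: Krt5, Krt18 and Cdh1 fell from day 4 to day 7 (log2 fold changes −2.61, −1.77 and −1.89). With the TEC score as a covariate the change of Ccl21a was −1.01 (adjusted p = 0.307). The log2 ratio of Ccl21a to the TEC score was −1.34 ± 0.42 at steady state, −1.71 ± 0.51 on day 1, −1.77 ± 0.50 on day 4 and −2.37 ± 0.22 on day 7. It was lowest on average at day 7, where its range overlapped that of day 4.

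Ccl19, the CCR7 ligand with the lower measured level, was highest at day 1. Its levels were 8.18, 1.70, 3.64 and 4.02 CPM at steady state, 11.7, 6.41 and 5.59 on day 1, 2.32, 5.13 and 3.02 on day 4, and 2.01, 2.34 and 2.28 on day 7. The day 1 libraries lay above all of days 4 and 7 and overlapped steady state. The change from day 1 to day 7 was −1.84 (SE 0.52, adjusted p = 0.0463). This call was lost without any 1 of the 6 libraries compared (adjusted p of 0.0669 to 0.144), and the log2 fold change then ran from −2.04 to −1.44. The share of all genes that passed was then 2.28% to 9.40%, against 8.13% with all libraries. From day 1 to day 4 the change was −1.17 (SE 0.51, adjusted p = 0.327). The median level of Ccl19-ps1 was 0.390 CPM at day 7 and 1.08 CPM at steady state.

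Il7 had its highest levels at day 4. Its levels were 80.6, 23.8, 35.7 and 20.1 CPM at steady state, 44.6, 23.1 and 58.0 on day 1, 115, 138 and 93.7 on day 4, and 38.1, 29.8 and 21.0 on day 7. All 3 libraries of day 4 lay above the other 10. The change was −1.96 (SE 0.49, adjusted p = 0.0449) from day 4 to day 7, a fall past the threshold.

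The higher level of Il7 at day 4 than in the earlier groups did not pass it. From steady state to day 4 the log2 fold change was 1.53 (SE 0.44, adjusted p = 0.194), and from day 1 to day 4 it was 1.46 (SE 0.49, adjusted p = 0.194). Without the steady-state library named PBS day 1 replicate 2, which held 80.6 CPM, the change from steady state to day 4 was 2.21 and passed (adjusted p = 0.0301). The call from day 4 to day 7 was lost without any 1 library of day 4 (adjusted p = 0.0570, 0.158 and 0.107 without replicates 1, 2 and 3) and without replicate 2 or 3 of day 7 (0.136 and 0.142). In those fits 0.0725% to 2.18% of all genes passed, against 3.90% with all libraries. With the TEC score as a covariate the change of Il7 was −0.53 (adjusted p = 0.524). The log2 ratio of Il7 to the TEC score was −2.50 ± 0.30 at steady state, −2.81 ± 0.67 on day 1, −1.76 ± 0.32 on day 4 and −2.05 ± 0.10 on day 7, so that on this ratio day 7 lay near day 4.

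Kitl varied least with time. Its levels were 75.7, 31.0, 78.4 and 40.1 CPM at steady state, 70.5, 30.2 and 41.5 on day 1, 57.8, 64.6 and 70.9 on day 4, and 32.9, 46.5 and 46.7 on day 7. Only days 4 and 7 did not overlap, with a ratio of means of 0.653 and a log2 fold change of −0.62 (SE 0.38, adjusted p = 0.419). The largest of its 6 log2 fold changes was this one.

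Flt3l was the lowest member per length and had its lowest mean at day 1. Its levels were 15.8, 3.13, 10.6 and 9.10 CPM at steady state, 4.92, 3.76 and 4.75 on day 1, 5.03, 6.55 and 5.78 on day 4, and 6.60, 16.0 and 6.40 on day 7. Day 1 lay below days 4 and 7, while the steady-state library with 3.13 CPM lay below all others. The log2 fold change was −1.11 (SE 0.47, adjusted p = 0.255) from steady state to day 1 and 1.11 (SE 0.50, adjusted p = 0.193) from day 1 to day 7. Without replicate 2 of day 7 the latter was 0.52 (adjusted p = 0.653). That library, with 16.0 CPM, also held the highest summed thymocyte level of all libraries, 4200 CPM, and the part of thymocytes in its Flt3l value was not tested.

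**Figure D3:**
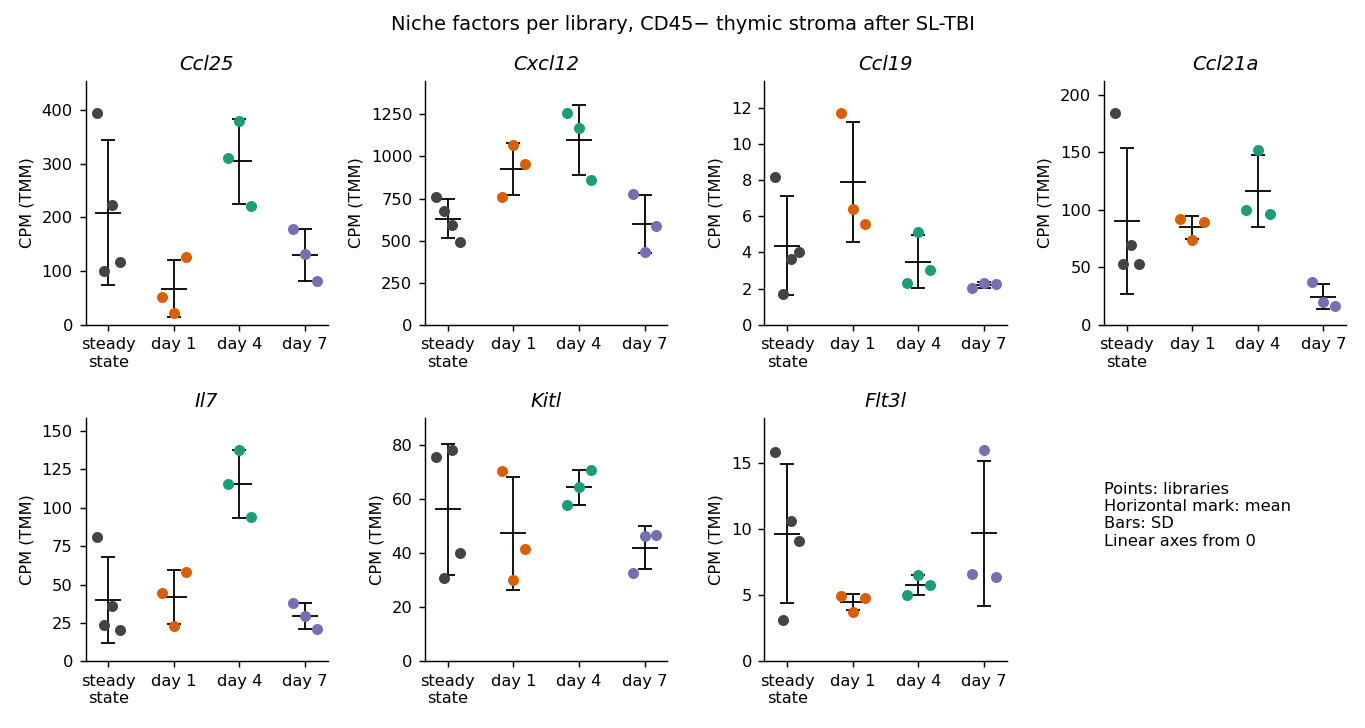
CPM of each niche factor in every library (points) with the mean and SD of each condition, on linear axes from 0. Il7 at day 4 (93.7 to 138 CPM) and Ccl21a at day 7 (16.4 to 36.8 CPM) lie apart from all other libraries of the same gene.

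The steady-state group was uneven for most members. The library named PBS day 1 replicate 2 was the highest of the 4 for Ccl25, Cxcl12, Ccl19, Ccl21a, Il7 and Flt3l. It also had the highest TEC score of the group (8.62) and the lowest FB score (11.02), whereas the library named PBS day 4 replicate 2 had the lowest TEC score (6.87) and the highest FB score (13.51). The coefficient of variation at steady state was 64.9% for Ccl25, 70.6% for Ccl21a and 69.4% for Il7, against 18.5% for Cxcl12.

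The relation to stromal lineages was measured by Pearson's r over the 13 libraries between log2(CPM + 0.5) of a factor and 5 marker scores: TEC, cTEC, mTEC (Aire, Fezf2, Krt14, Itgb4 and Cldn4), FB and endothelial (EC). Of the 35 relations, 8 had an adjusted permutation p of 0.05 or less. Since conditions form groups, r was also computed from deviations from condition means, where 2 relations passed (exact permutation within conditions). All scores and levels of a library share its depth and composition, and more RNA of one cell type means a lower CPM for the rest.

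Ccl25 followed the cTEC score most closely. Over libraries r was 0.947 (rho 0.956, permutation p = 1e-05 for both, the smallest these permutations can give, adjusted p = 0.00035), and within conditions it was 0.881 (adjusted exact permutation p = 0.0203). Without the 2 libraries farthest from the median, replicates 1 and 2 of day 1, r was 0.940. With the EC score r was 0.578, and with the FB score it was −0.279.

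Ccl21a and Il7 followed the TEC score, in which Epcam and the keratins moved in opposite directions from steady state to day 4. For Ccl21a r was 0.849 (rho 0.863, permutation p = 0.00012 and 0.00023, adjusted p = 0.0021 and 0.00403), 0.743 within conditions (adjusted exact permutation p = 0.0694) and 0.771 without the 2 farthest libraries. With the mTEC score r was 0.814 (rho 0.714, permutation p = 0.00053 and 0.00842, adjusted p = 0.00618 and 0.0368), 0.766 within conditions (adjusted exact permutation p = 0.105) and 0.664 without the 2 farthest. For Il7 and the TEC score r was 0.831 (rho 0.802, permutation p = 0.00104 and 0.00167, adjusted p = 0.0091 and 0.0195), 0.802 within conditions (adjusted exact permutation p = 0.0768) and 0.810 without the 2 farthest. The relation of Il7 to the cTEC score passed by rank only (r 0.587, rho 0.764, permutation p = 0.0340 and 0.00359, adjusted p = 0.132 and 0.0216), with r of 0.880 without replicates 1 and 2 of day 1. With the mTEC score its r was 0.435 over libraries and 0.807 within conditions (adjusted exact permutation p = 0.0694).

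Cxcl12, which fibroblasts express in many tissues, followed the TEC score more closely than the FB score over the 13 libraries. With the TEC score r was 0.790 (rho 0.786, permutation p = 0.00157 and 0.00223, adjusted p = 0.011 and 0.0195) and 0.729 without the 2 farthest libraries, but 0.543 within conditions (adjusted exact permutation p = 0.185). With the FB score r was 0.163, and 0.205 within conditions. Without the 2 steady-state libraries farthest from the median FB score these were 0.365 and 0.548. The within-condition r with the TEC score without its 2 farthest libraries was 0.606, so within conditions the scores were not clearly separated. With the EC score r was 0.142. At steady state the FB score was spread more by its collagen genes than by Pdgfra. The relation of Cxcl12 to the number of fibroblasts was not tested. Ccl19 followed the mTEC score with r of 0.764 (rho 0.758, permutation p = 0.0026 and 0.00371, adjusted p = 0.0152 and 0.0216) and 0.704 without the 2 farthest, and within conditions r was 0.558 (adjusted exact permutation p = 0.467). From steady state to day 1 the genes of the mTEC score moved apart, with none past the threshold. Log2 fold changes were 0.81 for Krt14, 0.77 for Itgb4, 1.16 for Cldn4, −1.40 for Aire and −0.47 for Fezf2.

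Kitl and Flt3l were lower where the FB score was higher, a score spread at steady state more by collagen genes than by Pdgfra. For Kitl r was −0.709 (rho −0.747, permutation p = 0.00604 and 0.00451, adjusted p = 0.0298 and 0.0226) and −0.901 within conditions (adjusted exact permutation p = 0.0694). For Flt3l r was −0.703 (rho −0.440, permutation p = 0.00681 and 0.135, adjusted p = 0.0298 and 0.262) and −0.879 within conditions (adjusted exact permutation p = 0.0338). Both weakened without the steady-state libraries named PBS day 1 replicate 2 and PBS day 4 replicate 2, to −0.565 and −0.404, so that the pooled relation of Flt3l rested largely on them.

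**Figure D4:**
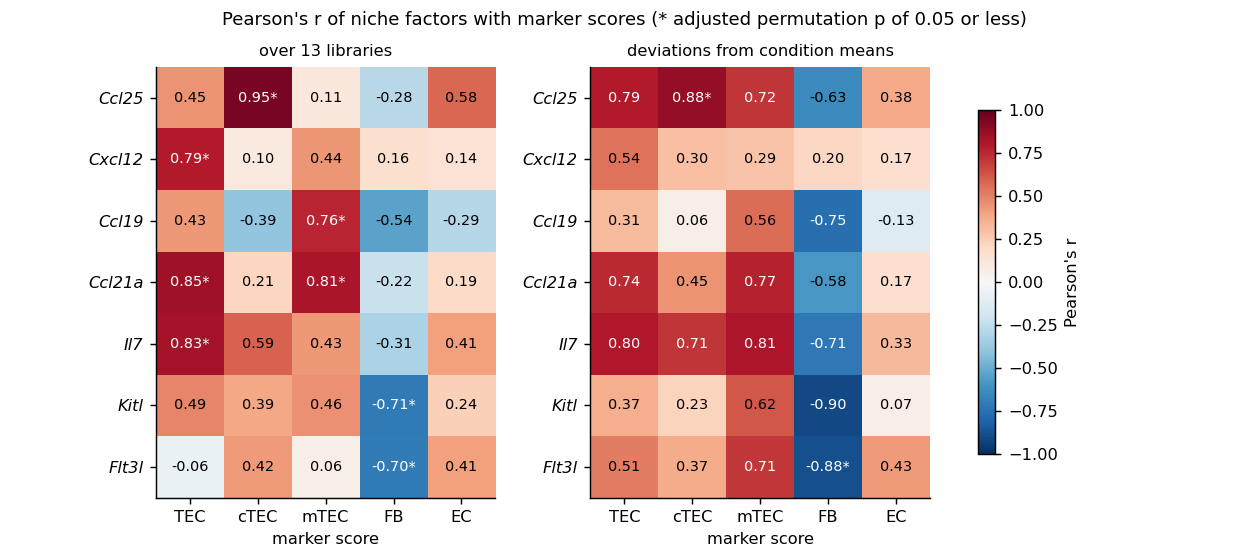
Pearson's r of each niche factor with 5 marker scores, over 13 libraries (left) and from deviations from condition means (right). Asterisks mark an adjusted permutation p of 0.05 or less, found for 8 relations on the left and for Ccl25 with cTEC and Flt3l with FB on the right.

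**Figure D5:**
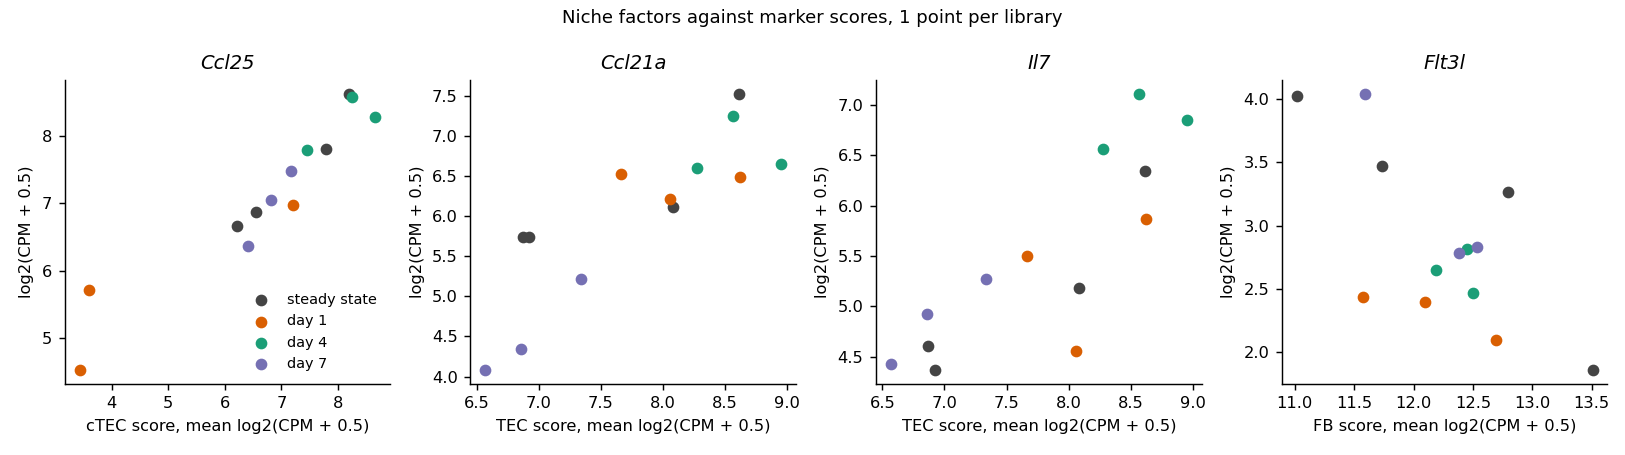
Log2(CPM + 0.5) of 4 niche factors against a marker score in each of 13 libraries, coloured by condition. Replicates 1 and 2 of day 1 lie lowest for Ccl25 and cTEC, and the libraries of day 7 lie low for Ccl21a and TEC.

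Genes with the most similar profile to each member were taken from 11451 genes by Pearson's r over the 13 libraries, as a description with no test. The closest to Ccl25 was Tbata (r = 0.993), itself in the cTEC list, followed by Fmo1 (0.938) and Kcnn3 (0.932). Closest to Il7 were Cbr2 (0.989), Sptssb (0.983) and Nqo1 (0.979), and closest to Ccl21a were H2-DMb2 (0.945), Rasd1 (0.944) and Fermt1 (0.943). Cxcl12 was closest to Efs (0.956), Ccl19 to Srgn (0.912), Kitl to Epas1 (0.894), which encodes HIF-2α, and Flt3l to Pitpnc1 (0.978).

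Of the 9 receptors of these factors, 1 passed the threshold in any comparison. This was Ccr9, the CCL25 receptor of thymocytes, which was 25.5 to 98.0 CPM at steady state, 11.9 to 14.2 on day 1, 1.31 to 1.63 on day 4 and 17.4 to 328 on day 7. Its fall to day 4 (log2 fold change −5.39, adjusted p = 0.0183) and rise from day 4 to day 7 (6.79, adjusted p = 0.00598) and from day 1 to day 7 (3.59, adjusted p = 0.0182) moved with the summed thymocyte level given above. The part of thymocytes in it was not tested. Among 12 other homing and growth factors, 1 passed: Selp, the P-selectin of portal endothelium, rose from 12.4 ± 7.71 CPM (SD, n = 4) at steady state to 51.0 ± 14.6 (n = 3) at day 1 (log2 fold change 2.04, adjusted p = 0.0136) and fell to 13.1 ± 3.95 at day 7 (n = 3; −1.97 against day 1, adjusted p = 0.0171). Of the 6 regulators (Foxn1, Relb, Nfkb2, Ltbr, Tnfrsf11a and Cd40), 0 passed in any comparison by edgeR, 6 of their 36 tests had an unadjusted p under 0.05, and DESeq2 called Tnfrsf11a (RANK) at day 7 against steady state and Foxn1 at day 7 against day 4. The level of Foxn1 was 41.1 ± 37.5 CPM at steady state (n = 4), 25.0 ± 15.9 on day 1, 79.2 ± 19.4 on day 4 and 20.5 ± 7.84 on day 7 (n = 3 each).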

How the data were processed

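Bulk RNA-seq of CD45− thymic stroma was analysed in 13 libraries. The authors made the count table from paired-end reads with Trimmomatic 0.38 for trimming, STAR 2.7.0e for alignment to GRCm38.p5 (GENCODE M12) and featureCounts 1.6.3 at default settings for counting (versions per the submitters' processing notes). The deposited values are raw counts, and 0 columns of per-sample values were left out. The 4 columns named PBS carry days and replicates that the labels of the steady-state samples do not give, so no replicate numbers were given to them. The deposited exon length of each gene was used for CPM per kilobase.

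Counts were tested with edgeR 4.0.16 in R 4.3.3, with 13 libraries in 1 fit, a term for condition, TMM normalization, filterByExpr (19984 of 53379 genes kept, depth 15721866 to 52056896), the quasi-likelihood test and Benjamini-Hochberg adjustment over all genes. The common dispersion was 0.177. SEs were taken from the log2 fold change and its F statistic. Relations used 100000 permutations over libraries, or all 5184 permutations within conditions, two-sided, with 35 relations adjusted together. Symbols and loci came from GENCODE M21 (GRCm38), in which 53274 identifiers had a symbol. The fit was tested on simulated data. The members, marker lists and tests were chosen with earlier results of these data known.

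The genes named follow a rule: the 7 members, their receptors, regulators and other homing or growth factors past the threshold, copies of Ccl19 and Ccl21a by symbol, marker lists, and the 3 genes most similar to each member (over 5 CPM on average). TEC markers past the threshold, Foxn1 and Tnfrsf11a beside the threshold, and 3 of the Ccl21a copies were named after their values were seen. The alternatives were DESeq2 1.42.0, RLE normalization, other filters, fewer conditions or libraries, covariates, replicate blocks and thinned counts. One covariate, the tag family, is a string in the column names (k3, kk or neither) whose meaning the labels do not give. It was k3 for replicates 2 and 3 of day 4 and replicates 1 and 2 of day 7, and for no library of day 1. Tag and day therefore cannot be fully told apart.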

Additional observations from a re-analysis of the deposited data

Results flagged for a closer look

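The steady-state library named PBS day 1 replicate 2 held 184 CPM of Ccl21a, and its distance to the next library was 0.876 of the range of the 4 libraries, above the critical value of Dixon's test at 95%. The other 3 libraries held 52.7 to 69.0 CPM. Chance alone gives such a value in about 1 of 20 groups, and 12 groups were examined (7 members and 5 marker scores). The same library had the highest TEC score of its group (8.62). Without it, the log2 fold change of Ccl21a was 0.59 from steady state to day 1 (adjusted p = 0.367 by edgeR) in place of −0.08.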

How the results depend on the processing

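Calls on the niche factors were few and close to the threshold. Of 108 counts of members past the threshold under alternatives, 72 were within 1.5 times the reported count, most of them 0 beside a reported 0. Another 24 were lower, all in the comparisons with reported calls, and 12 were higher, all where the reported count was 0. Where the reported count was 0, it became 1 at day 1 against steady state with the TEC score as covariate (Ccl25), 2 at day 4 against steady state with DESeq2 (Cxcl12 and Il7) and 1 (Il7) with the FB score, an alternative chosen after seeing the data, 1 at day 7 against steady state with no filter, DESeq2 or the FB score (Ccl21a), and at day 4 against day 1 it became 1 with no filter or DESeq2 (Ccl25) and 2 with the FB score (Ccl25 and Il7). For day 7 against day 1 the count of 2 became 1 with at least 10 counts in every library, thinned counts or the replicate block by label (Ccl21a), 1 with the TEC score (Ccl25, which is not one of the reported 2), 0 with the thymocyte score, the tag family or the replicate block by column name, and 3 with the FB score (adding Flt3l). For day 7 against day 4 the count of 2 became 1 with at least 10 counts in every library or the tag family (Ccl21a), 0 with the thymocyte or TEC score or either replicate block, and 3 with DESeq2 (adding Cxcl12). Leaving out 1 library at a time gave counts of 0 to 1 for days 4 and 7 against steady state and for day 4 against day 1, 0 for day 1 against steady state, 0 to 1 for day 7 against day 1 and 0 to 3 for day 7 against day 4, the 3 being Cxcl12, Ccl21a and Il7 without replicate 1 of day 7. The number of all genes past the threshold also varied between these fits. For day 7 against day 4 it ran from 0 (replicate block by label) to 1919 (DESeq2), beside 779 in the reported fit. The cause of these changes was not tested.

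The replicate numbers of the labels did not pair the libraries: same-numbered libraries of days 1 and 4 had correlations of −0.84, −0.60 and −0.57 between their deviations from condition means, those of days 1 and 7 −0.20, −0.41 and 0.18, and those of days 4 and 7 0.21, 0.27 and −0.32. Under the replicate block by label, Ccl21a changed by −1.86 from day 1 to day 7 (adjusted p = 0.0423 by edgeR).

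The 4 called changes kept their direction under all 18 alternatives each. Their adjusted p (edgeR or DESeq2) ran from 0.000116 to 0.494 for Ccl21a from day 4 to day 7, 0.00267 to 0.292 for Ccl21a and 0.00373 to 0.181 for Ccl19 from day 1 to day 7, and 0.00161 to 0.524 for Il7 from day 4 to day 7. For the 9 changes called only under alternatives it ran from 0.0117 to 0.429 for Ccl25 from steady state to day 1, 0.00865 to 0.365 and 0.0299 to 0.631 for Ccl25 from day 1 to days 4 and 7, 0.0328 to 0.850 for Cxcl12 and 0.0259 to 0.665 for Il7 from steady state to day 4, 0.00421 to 0.570 for Ccl21a from steady state to day 7, 0.0294 to 0.488 for Il7 from day 1 to day 4, 0.0391 to 0.991 for Flt3l from day 1 to day 7 and 0.0134 to 0.952 for Cxcl12 from day 4 to day 7. Of the 756 values of members under alternatives, 42 turned direction, none of them called. With the TEC score as covariate these were Ccl25 at days 4 and 7 against steady state (−0.34 and 0.26) and day 7 against day 4 (0.59), Cxcl12 at day 7 against steady state (0.11), Ccl21a at day 4 against steady state (−0.21), Il7 at days 1 and 7 against steady state (−0.17 and 0.34) and day 7 against day 1 (0.51), and Kitl at day 4 against steady state (−0.011) and day 7 against day 1 (0.15). With the thymocyte score they were Cxcl12 at day 7 against steady state (0.12) and day 4 against day 1 (−0.10), Ccl19 (0.33), Ccl21a (−0.059) and Flt3l (0.55) at day 4 against steady state, Kitl at day 1 (0.18) and Flt3l at day 7 (−0.51) against steady state, and Flt3l at day 7 against day 4 (−1.06). With the tag family they were Cxcl12 at day 7 (0.050) and Ccl21a at day 1 (0.026) against steady state and Kitl at day 7 against day 1 (0.058). Ccl21a at day 1 against steady state gave 0.049 with the replicate block by column name and 0.0010 with the FB score. Flt3l at day 7 against steady state gave −0.033 with at least 10 counts in every library, −0.034 with only those conditions and −0.0034 with the FB score. Leaving out 1 library turned Cxcl12 (−0.31 to 0.16), Il7 (−0.66 to 0.16) and Flt3l (−0.51 to 0.32) at day 7, Ccl19 (−0.71 to 0.27) and Kitl (−0.0086 to 0.52) at day 4, and Ccl21a (−0.27 to 0.59), Il7 (−0.24 to 0.70) and Kitl (−0.65 to 0.039) at day 1, each against steady state, and Kitl at day 7 against day 1 (−0.41 to 0.23). RLE normalization turned none and moved the median of all genes by at most 0.08 on the log2 scale. Of 637 correlations under alternatives, 55 lay outside the range given by leaving out each library. The correlations that set this range are among the 637 and lie inside it by construction, so all 55 came from the other alternatives. No called relation changed sign.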
